A study of Mus musculus with 4 samples.

Results

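Accessible regions that covered the ends of 2 or more neighbouring protein-coding genes were examined in naive CD4 T cells of the mouse. A region of the joint list was taken when it overlapped, by at least 1 bp, the 500 bp on either side of an annotated end of at least 2 different protein-coding genes on chromosomes 1 to 19 whose bodies did not overlap. This rule gave 992 of the 63301 autosomal regions (1.57%), out of 64525 regions in the whole list. Of the 9904 autosomal regions at any gene end, they were 10% (95% exact interval 9.43 to 10.6%). A further 8475 regions touched the ends of 1 gene, and 437 touched ends of genes whose bodies overlapped.

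The series compared chromatin accessibility by ATAC-seq, in which a transposase inserts adapters into DNA that is not wrapped in nucleosomes. Naive CD4 T cells, the helper T cells that have not yet met their antigen, came from Spleen and pLN of WT mice (2 libraries) and of Ddx55 KO mice (2 libraries). Ddx55 encodes a DEAD-box RNA helicase of large ribosomal subunit assembly. The labels give no treatment, age, strain or Cre driver, and leave unsaid whether the replicates are different animals. The region list was joint for all libraries and carried no read count, score, library or genotype, so depth is unknown and the genotypes were not compared here. All values describe both genotypes together, and their intervals cover counting error over regions, genes or gene pairs only.

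As background, neighbouring genes can lie head to head (divergent, both starts facing each other), head to tail (tandem, the end of one facing the start of the next) or tail to tail (convergent, both ends facing). Many mammalian genes that work in every cell, such as those of DNA repair, mitochondria and translation, lie head to head with their starts close together. The stretch between them is then called a bidirectional promoter, since transcription leaves it in both directions. Such promoters are usually rich in GC and in unmethylated CpG, and mostly lack a TATA box.

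The DNA between the starts of 8 divergent pairs is shown first, because it is the stretch that each shared region had in common to both genes. The sequences are those of RefSeq on mm10, printed on the plus strand, from the base after the start of the gene on the left to the base before the start of the gene on the right. Capitals mark motif letters found on either strand: CCAAT, bound by NF-Y (ATTGG on the other strand), GGGCGG, the GC box of SP and KLF factors (CCGCCC on the other strand), CCGGAAG, the core of many ETS sites (CTTCCGG on the other strand), TATAAA, and a motif of the factor NRF1. The first 3 pairs are known bidirectional pairs, and the fourth pair is a neighbour of Ddx55. The other 4 are a pair of histone gene pairs with several CCAAT boxes, a pair of mitochondrial ribosome and proteasome genes with the NRF1 motif, and a short stretch with ETS motifs on both strands. The other 4 were chosen after their sequences had been read, as examples of each motif.
Psmb9/Tap1, chr17:34187331-34187555: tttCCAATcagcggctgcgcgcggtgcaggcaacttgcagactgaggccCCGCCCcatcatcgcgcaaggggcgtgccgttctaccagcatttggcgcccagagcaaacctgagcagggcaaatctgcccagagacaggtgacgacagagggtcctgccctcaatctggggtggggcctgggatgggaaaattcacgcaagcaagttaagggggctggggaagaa
Brca1/Nbr1, chr11:101551956-101552106: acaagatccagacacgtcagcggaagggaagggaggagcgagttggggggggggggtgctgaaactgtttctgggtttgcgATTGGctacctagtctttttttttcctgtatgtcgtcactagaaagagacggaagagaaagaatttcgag
Mrps12/Sars2, chr7:28741822-28741967: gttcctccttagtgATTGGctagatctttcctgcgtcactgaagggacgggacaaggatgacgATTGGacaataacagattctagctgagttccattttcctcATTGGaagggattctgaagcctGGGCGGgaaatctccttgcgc
Eif2b1/Gtf2h3, chr5:124579132-124579147: cggaaatcgagtgcgc
H2ac12/H2bc12, chr13:22035644-22035820: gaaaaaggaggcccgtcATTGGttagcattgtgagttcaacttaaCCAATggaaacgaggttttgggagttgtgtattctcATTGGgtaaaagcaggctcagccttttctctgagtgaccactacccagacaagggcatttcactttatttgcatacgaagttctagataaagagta
H2ac8/H2bc8, chr13:23571221-23571399: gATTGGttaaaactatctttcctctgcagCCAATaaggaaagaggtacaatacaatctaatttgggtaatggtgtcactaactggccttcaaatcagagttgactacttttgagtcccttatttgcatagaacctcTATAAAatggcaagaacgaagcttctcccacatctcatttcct
Mrpl32/Psma2, chr13:14613038-14613241: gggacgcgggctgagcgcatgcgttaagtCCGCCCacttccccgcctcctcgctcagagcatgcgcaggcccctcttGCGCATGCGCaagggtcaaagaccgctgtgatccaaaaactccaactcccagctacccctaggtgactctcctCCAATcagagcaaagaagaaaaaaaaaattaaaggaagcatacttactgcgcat
Alkbh1/Slirp, chr12:87443840-87443895: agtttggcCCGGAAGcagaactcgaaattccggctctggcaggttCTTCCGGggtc

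Each of these 8 stretches lay whole inside 1 accessible region by choice, since only pairs with both annotated starts inside 1 region were read. The shortest was the 16 bases between Eif2b1, a subunit of the translation initiation factor eIF2B, and Gtf2h3, a subunit of the repair and transcription factor TFIIH, inside a region of 1144 bp at chr5:124578875-124580018. The 225 bases between Psmb9, a catalytic subunit of the immunoproteasome, and Tap1, which helps carry peptides into the endoplasmic reticulum for MHC class I, lay inside a region of 1066 bp. The 151 bases between Brca1, a gene of homologous recombination repair, and Nbr1, an autophagy receptor, lay inside a region of 1276 bp. The stretch between Mrps12, a protein of the mitochondrial ribosome, and Sars2, the mitochondrial seryl-tRNA synthetase, held 3 CCAAT boxes and 1 GC box in 146 bases.

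Of 13 gene pairs listed as known head-to-head pairs or as neighbours of interest, 6 met the rule. Besides the 4 shown, these were Atm/Npat and Mcm4/Prkdc. Atm, the kinase that signals DNA double-strand breaks, and Npat, a coactivator of histone genes, lay 60 bp apart under a region of 1150 bp at chr9:53536107-53537256. Mcm4, a subunit of the replicative helicase, and Prkdc, the catalytic subunit of DNA-dependent protein kinase, lay 43 bp apart under a region of 1085 bp at chr16:15636982-15638066. The 6 pairs with overlapping gene models did not meet the rule, yet 4 of them also had 1 region at the ends of both genes. Among these were the mitochondrial chaperonins Hspd1/Hspe1 (region of 1286 bp), the purine synthesis genes Ppat/Paics (1226 bp) and Surf1/Surf2 (968 bp). No region lay at the ends of both genes in the basement membrane collagen pairs Col4a1/Col4a2 and Col4a4/Col4a3. Cd3g and Cd3d, both T cell receptor subunits, lay 1337 bp apart and had separate regions.

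Ddx55 itself (chr5:124552832-124569660, plus strand) was in no shared region. It had 1 region at its ends, and its nearest gene with a separate body lay 554 bp away. Of 10 naive CD4 T cell marker genes, 9 had a region within 500 bp of an end, and Lef1 did not. A region was found for 0 of 5 B cell, 0 of 2 natural killer cell and 0 of 3 red cell genes, for 1 of 2 CD8 T cell genes (Cd8b1) and for 2 of 5 myeloid genes (Itgam and Csf1r). A region at a gene end is a measure of open chromatin and not of expression, and the bearing of these markers on the shared regions was not tested.

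The 992 regions covered ends of 1915 of the 20665 autosomal protein-coding genes, a share of 9.27%. For comparison, 50.2% of these genes (10373) had any region at an end, and 18.5% of those were in a shared region. Ends of 2 genes were covered by 970 regions and ends of 3 genes by 22. The regions joined 996 distinct gene pairs, and 17 pairs had 2 such regions, which gives 1013 combinations of region and pair. All 1013 combinations were touched at the facing ends of the pair.

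Strand was known for 83.7% of the genes in shared regions, and for both genes of 759 of the 1013 combinations (74.9%). In these 759, 534 were divergent (70.4%, interval 67 to 73.6%), 210 were tandem (27.7%, 24.5 to 31%) and 15 were convergent (1.98%, 1.11 to 3.24%). Over all 1013, the divergent share would be 52.7% if no other combination were divergent. It would be at most 73.8% if every combination were divergent whose known strand, where 1 was known, allowed it (748). Taken gene by gene, the annotated start faced the partner in 1412 of 1692 gene positions (83.5%).

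**Figure D1:**
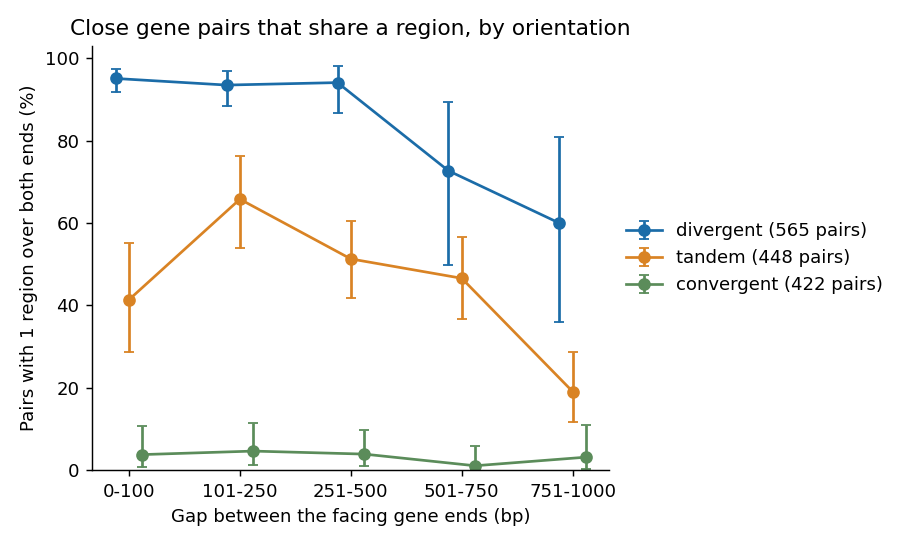
Share of close neighbouring gene pairs with 1 accessible region over both facing ends (vertical axis, percent, with 95% exact intervals as bars) against the gap between the genes (horizontal axis, classes in bp), for divergent, tandem and convergent pairs. Divergent pairs were between 93.5% and 95.1% in the classes up to 500 bp, and convergent pairs were at 4.65% or below in every class.

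Whether a close pair shared a region differed by arrangement. Over all 2014 pairs of separate genes whose facing ends lay at most 1000 bp apart, 48.7% had 1 region over both ends (interval 46.5 to 50.9%). Both strands were known for 1435 of them (71.3%), and the following shares describe only those. Among divergent pairs it was 522 of 565 (92.4%, 89.9 to 94.4%). Among tandem pairs it was 200 of 448 (44.6%, 40 to 49.4%), and among convergent pairs 14 of 422 (3.32%, 1.83 to 5.5%). None of these 3 intervals overlapped another. The close pairs themselves were 39.4% divergent, 31.2% tandem and 29.4% convergent. Pairs of unknown strand were at 42.1% of 579.

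Within each class of gap the order of the arrangements was the same, as the plot of shared regions by gap shows. Divergent pairs were at 95.1% for gaps up to 100 bp, 93.5% for 101 to 250 bp and 94.1% for 251 to 500 bp. They were then at 72.7% of 22 pairs up to 750 bp and at 60% of 20 pairs up to 1000 bp, where the intervals are wide (36.1 to 80.9% in the last class). Tandem pairs ran from 41.4% through 65.8%, 51.3% and 46.6% to 19.1% over the same classes. Convergent pairs were between 1.09% and 4.65% in every class. At gaps up to 500 bp the window of each gene reaches its neighbour, so a region in the gap counts for both genes by position alone. This holds equally for the 3 arrangements within a class.

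When a close pair did not share a region it mostly had none at all. Of the 2014 close pairs, 925 had no region at the facing ends, 106 had a region at 1 of them and 3 had a separate region at each. The 3 were 1 divergent and 2 tandem pairs. Among convergent pairs 397 of 422 had no region, against 188 of 448 tandem and 36 of 565 divergent pairs. Of pairs with a region at a facing end, 98.7% of 529 divergent, 76.9% of 260 tandem and 56% of 25 convergent pairs had 1 region over both ends. At gaps up to 100 bp it was 100% of 269, 96% of 25 and 100% of 3. At such short gaps the shares by arrangement thus mainly count whether a region was there at all.

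The 36 divergent pairs without a region were of mixed kinds, and the examples were chosen after their values were seen. Among them were genes of general function. One was the ribosomal protein gene Rps2 with Rnf151 (gap 63 bp, nearest region at 1579 bp), although an annotated start of Rps2 lay inside a region elsewhere. Another was Ctnnd1, which encodes p120 catenin, with Btbd18 (94 bp, nearest at 1283 bp). Others were Bhmt2/Dmgdh of liver betaine metabolism (gap 133 bp), the meiotic cohesin gene Smc1b with Ribc2 (102 bp), Rec114/Hcn4 of meiotic recombination and the heart pacemaker current (242 bp), and the olfactory receptors Olfr181/Olfr183 (773 bp). The nearest region lay 29859 bp away for Bhmt2/Dmgdh, 73922 bp for Smc1b/Ribc2, 23628 bp for Rec114/Hcn4 and 42097 bp for Olfr181/Olfr183. The imprinted pair Peg3/Usp29 (96 bp) had its nearest region at 45120 bp. The histone pairs H2bc1/H2ac1, H2bc23/H2ac23 and H2ac24/H4bc24 had theirs at 22661, 1368 and 1241 bp. In 8 of the 36 (22.2%), an annotated start of either gene lay in a region elsewhere. An example is Stat5b/Stat5a, the transcription factors that act after interleukin-2 and interleukin-7: their outermost gene ends lay 346 bp apart with no region within 887 bp, and both genes had another annotated start inside a region.

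**Figure D2:**
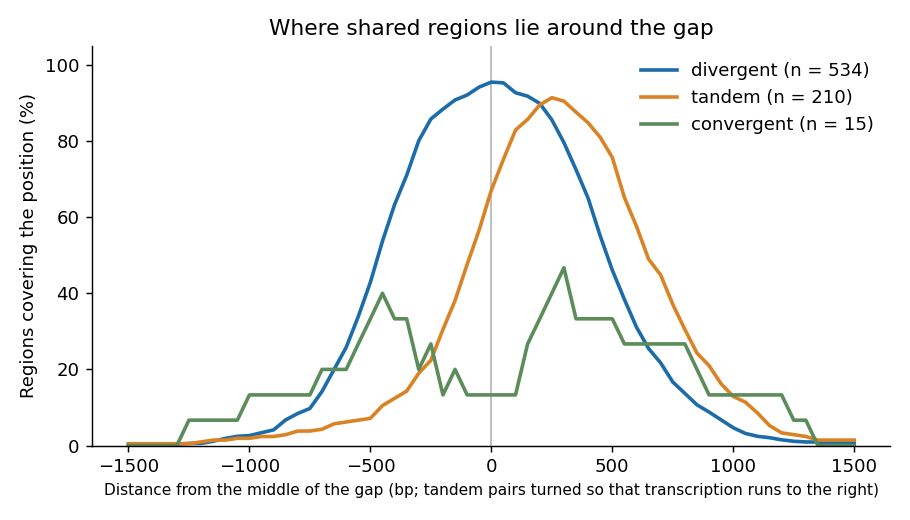
Share of gene pairs whose shared region covered each position (vertical axis, percent) against the distance from the middle of the gap between the genes (horizontal axis, bp), for 534 divergent, 210 tandem and 15 convergent combinations. Tandem pairs are turned so that the gene whose start faces the gap lies at positive distances. Coverage was highest at the middle for divergent pairs (95.5%) and at 250 bp on the side of that gene for tandem pairs (91.4%).

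Where the region lay within the gap also differed by arrangement. Gaps were not matched in this comparison, and had a median of 96 bp in divergent and 370 bp in tandem pairs. A wide region near both ends of a short gap tends to cover its middle, so the positions follow partly from the rule. Over divergent pairs, coverage was highest at the middle of the gap (95.5%), and it was 42.9% and 46.1% at 500 bp to either side. Over tandem pairs it was highest 250 bp from the middle towards the gene whose start faced the gap, at 91.4%, against 67.1% at the middle. It was 75.7% at 500 bp on that side and 7.14% at 500 bp on the side of the gene that ended there. Over the 15 convergent combinations the middle was covered in 13.3% and no position in more than 46.7%.

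The annotated starts were also placed relative to the regions. In 423 of 534 divergent combinations (79.2%, interval 75.5 to 82.6%) both genes had an annotated start inside the region, in 88 only 1 gene did and in 23 neither. In tandem combinations 1 of the genes had a start inside in 182 of 210 (86.7%). The middle of the region lay nearer the start end of the downstream gene in 188 of 210 (89.5%). In 12 of the 15 convergent combinations neither gene had a start inside. For regions at the ends of 1 gene of known strand, a start of that gene lay inside in 5118 of 6773 (75.6%).

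Both facing gene ends lay inside the region in 696 of the 1013 combinations (68.7%). This was 481 of 534 for divergent pairs (90.1%), 61 of 210 for tandem pairs (29%) and 0 of 15 for convergent pairs, where the interval reaches 21.8%. Gaps were not matched between the arrangements here either. The farther end lay 1 to 400 bp outside the region in 245 combinations and over 400 and up to 500 bp outside in 72. Just inside the limit were Mink1/Chrne and Prdx5/Esrra at 494 bp. Just outside it were Dnajc3/Uggt2 at 501 bp, and Elapor1/1700013F07Rik and Zcchc3/6820408C15Rik at 504 bp. Windows of 600 bp would have added 53 pairs.

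Gaps were short. Their median was 155 bp (interval 139 to 169 bp), with quartiles of 61 and 351 bp and a range of 0 to 1448 bp. Divergent pairs had a median gap of 96 bp (83 to 108 bp), tandem pairs one of 370 bp (327 to 435 bp) and convergent pairs one of 211 bp (58 to 400 bp). In the 423 divergent combinations with both starts inside, the closest starts of the 2 genes lay a median of 158 bp apart (140 to 174 bp, range 1 to 1464 bp), and 331 (78.3%) lay within 300 bp.

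**Figure D3:**
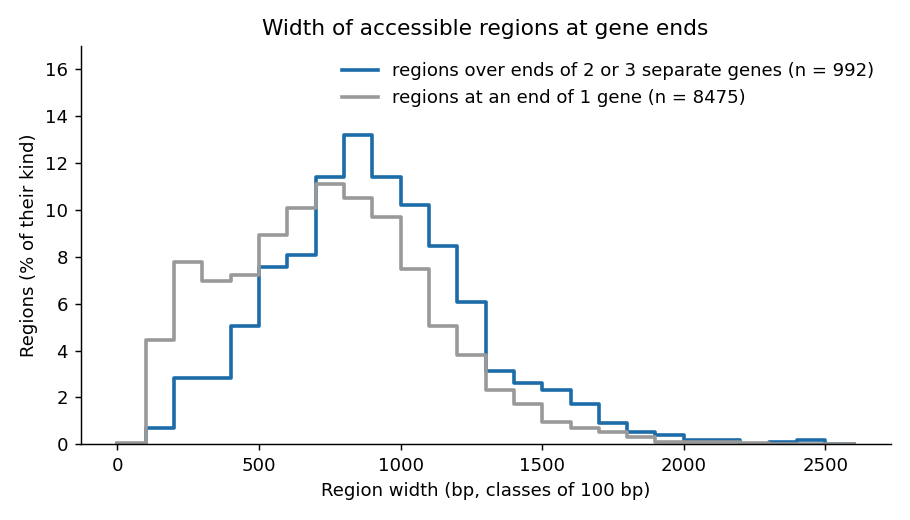
Distribution of region width (horizontal axis, bp) as percent of regions (vertical axis) in classes of 100 bp, for the 992 regions over ends of separate genes (blue) and the 8475 regions at the ends of 1 gene (grey). The blue line lies further to the right, with a median of 884 bp against 739 bp.

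The shared regions were wide. Their median width was 884 bp (interval 861 to 914 bp) with quartiles of 670.8 and 1117.2 bp, against 739 bp (730 to 749 bp) for regions at the ends of 1 gene and 292 bp for all autosomal regions. Regions over genes with overlapping bodies had a median of 922 bp (895 to 959 bp). Divergent combinations had a median of 955 bp (934 to 998 bp), tandem ones 788 bp (734 to 843 bp) and convergent ones 417 bp (246 to 818 bp). Part of the width follows from the rule, since a wide region reaches a second window more easily. Of gene-end regions under 300 bp wide, 3.21% were shared, and of those of 1500 bp or more, 19.3%. The median was 999 bp (959 to 1033 bp) for divergent pairs with both starts inside and 833 bp (823 to 841 bp) for regions at 1 gene with a start inside. This is no independent comparison, since a region that must hold 2 starts has to be wider. Regions at 1 gene without a start inside had a median of 365 bp.

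The 5 widest shared regions lay at genes of varied function. The region between LOC108167694 and Gm20783, a tandem pair of predicted genes, was 2448 bp wide (chr9:124422930-124425377). That between Nek8, a kinase of the primary cilium, and Tlcd1, a regulator of membrane lipid composition, was 2444 bp wide across a gap of 20 bp (chr11:78176167-78178610). The ribosomal protein gene Rpl7 and the retinol dehydrogenase gene Rdh10 shared 2322 bp across the largest gap, 1448 bp (chr1:16104003-16106324). Hnrnpa2b1 and Cbx3, which encode an RNA-binding protein and a heterochromatin protein, shared 2173 bp (chr6:51468905-51471077). Their human counterparts are the source of the ubiquitous chromatin opening element used in expression vectors. Atp6v1a, a subunit of the vacuolar proton pump, and Naa50, an N-terminal acetyltransferase, shared 2109 bp (chr16:44138639-44140747).

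The narrowest was a region of 165 bp at the convergent pair Zfp296/Clasrp, across the annotated end of Zfp296 (chr7:19580548-19580712), and another narrow one was that of 188 bp at Tomm6/Prickle4. After Rpl7/Rdh10 the largest gaps were those of the tandem cell adhesion genes Icam4/Icam5 (1441 bp, region of 1473 bp) and of Eme2/Nme3 (1412 bp). The Eme2/Nme3 region of 1663 bp also covered Mrps34, which lies between them. The smallest gap was 0 bp. Capza1, the actin capping protein subunit, and St7l abutted in this way under 1 region of 1730 bp. Smpd2, a sphingomyelinase, and Ppil6 abutted under a region of 728 bp. Only the edge of a further region of 347 bp reached into the windows of both, without covering the junction.

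Of the 22 regions over 3 genes, the widest after Eme2/Mrps34/Nme3 were those at Alkbh1/Nrp/Slirp (1393 bp), Gm45935/Setdb2/Cab39l (1285 bp), Trappc13/Shld3/Trim23 (1235 bp) and Gm20604/Gon7/Ubr7 (1201 bp). All 3 genes were separate from one another only in the regions at Eme2/Mrps34/Nme3 and H2ac21/H2ac20/H2bc21. A shared region at each end was found for 55 genes. Tap1 was one of them: besides the region shared with Psmb9, a tandem region of 891 bp (chr17:34197649-34198539) lay between Tap1 and Psmb8, another immunoproteasome subunit. Tapbp, which encodes the tapasin that links the peptide transporter to MHC class I, had Zbtb22 on one side and Rgl2 on the other. Rnf31, a subunit of the linear ubiquitin chain complex, lay between Psme2, a proteasome activator subunit, and Irf9, a transcription factor of the interferon response.

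The 15 convergent combinations were few enough to be named by their largest. The region of 1073 bp at H2ac21/H2ac20 (chr3:96220548-96221620) also covered an end of H2bc21. Those at Mink1/Chrne (1045 bp), Duox1/Shf (840 bp), Rnaseh2c/Kat5 (818 bp), a further region at H2ac21/H2ac20 (814 bp) and Tnfrsf25/Espn (706 bp) followed. Kat5 encodes the acetyltransferase TIP60, and Tnfrsf25 encodes the receptor DR3 of T cells.

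**Figure D4:**
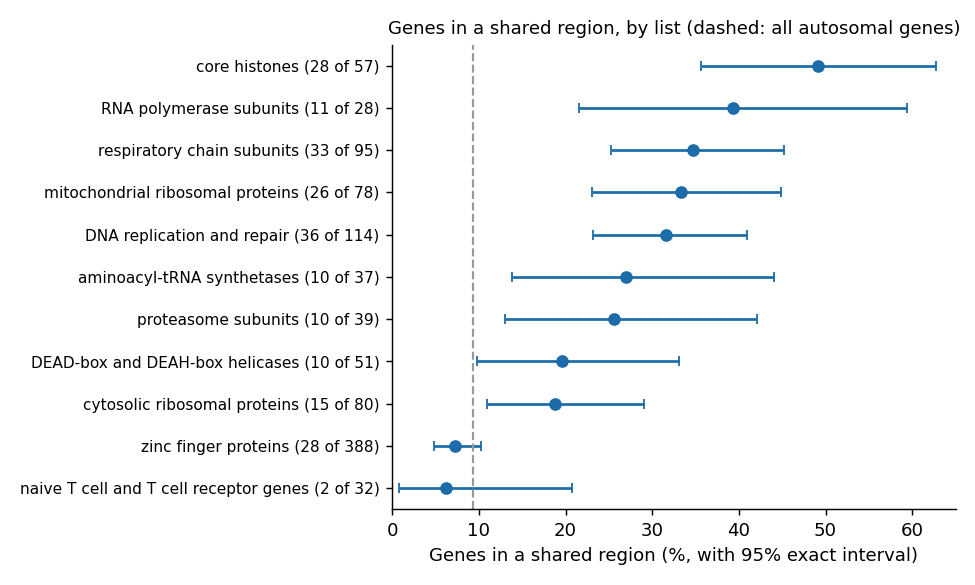
Percent of the genes of each gene list that lay in a shared region (horizontal axis, with 95% exact intervals as bars), with the share over all autosomal protein-coding genes, 9.27%, as a dashed line. The naive T cell and zinc finger lists were at 6.25% and 7.22%, the other 9 lists between 18.8% and 49.1%.

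The genes in shared regions were counted in 11 gene lists, each beside the share of 9.27% over all autosomal protein-coding genes. Naive T cell and T cell receptor genes gave 2 of 32 (6.25%). Lat, the adaptor that links the T cell receptor to its signalling chain, shared a tandem region of 722 bp with the lysolipid transporter gene Spns1 across 354 bp (chr7:126369253-126369974). Cd4, the coreceptor for MHC class II, shared a region of 489 bp with Gpr162 across 497 bp (chr6:124863754-124864242). The strands of Gpr162 and Cd4 were not both known. In the same list 29 of 32 genes had any region at an end.

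The list of mitochondrial ribosomal proteins gave 26 of 78 (33.3%), in 27 pairs of which 16 were known to be divergent. Mrpl40 and Hira, a histone chaperone gene, shared 1897 bp, and Mrpl41 and Pnpla7, a lysophospholipase gene, shared 1656 bp across a gap of 891 bp. Mrpl46 and Mrps11 were both in the list and shared 1057 bp across 41 bp. Respiratory chain genes, which here include assembly factors, gave 33 of 95 (34.7%). Uqcrh of complex III shared 1542 bp with Lrrc41, Ndufs1 of complex I shared 1287 bp with the elongation factor gene Eef1b2, and Ndufv3 shared 1234 bp with the tRNA methyltransferase subunit gene Wdr4. Mrpl47 and Ndufb5, 1 from each list, shared 1148 bp, as did Ndufs6 and Mrpl36 with 562 bp.

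Of the genes of DNA replication and repair, 36 of 114 (31.6%) were in shared regions, in 36 pairs of which 24 were known to be divergent. The recombinase paralogue Rad51b shared 1649 bp with Zfyve26, the replicative polymerase gene Pole shared 1441 bp with Pxmp2, and Fanci of the Fanconi anaemia pathway shared 1318 bp with Rlbp1. The mismatch repair gene Pms2 shared 1239 bp with Aimp2. Pcna, the sliding clamp of replication, shared 984 bp with Cds2. Mcm4/Prkdc was the only pair with both genes in this list.

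Cytosolic ribosomal proteins gave a lower count, 15 of 80 (18.8%). After Rpl7 the widest were Rps25 with Trappc4 (1161 bp) and Rpl9 with Lias, the lipoic acid synthase gene (1119 bp). Aminoacyl-tRNA synthetases gave 10 of 37 (27%), with Vars beside D17H6S56E-5 (1581 bp) and Kars beside the telomere gene Terf2ip (1354 bp). Genes named as proteasome subunits gave 10 of 39 (25.6%). Their widest regions were Psma7/Ss18l1 (1430 bp), Psmd13 with the mitochondrial deacetylase gene Sirt3 (1253 bp) and Psmb3 with the Polycomb gene Pcgf2 (1121 bp). One of the 10, Psmc3ip, is in the list by its name and encodes a meiotic recombination factor. RNA polymerase subunits gave 11 of 28 (39.3%), among them Polr2a with Slc35g3 (1628 bp) and Polr1d with Lnx2 (1613 bp). DEAD-box and DEAH-box helicases, the family of Ddx55, gave 10 of 51 (19.6%), the widest being Ddx42/Ccdc47 (1460 bp), Ddx31/Gtf3c4 (1410 bp) and Ddx54/Rita1 (1102 bp).

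Zinc finger protein genes gave 28 of 388 (7.22%), and 5 of their 23 pairs had both genes in the list. The widest were Zfp668/Zfp646 (1670 bp), Zfp524/Fiz1 (1506 bp) and Zfp942/Zfp943 (1401 bp). Core histone genes, which lie in clusters, gave 28 of 57 (49.1%), and 15 of their 16 pairs had both genes in the list. The widest histone regions were H2bc6/H1f4 (1740 bp), H3c13/H2bc18 (1635 bp) and H4c1/H3c1 (1594 bp).

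These shares depend on how many list members have a close neighbour at all. A separate neighbour within 1000 bp was found for 3614 of all genes (17.5%), and 1892 of those (52.4%) were in a shared region. Among list genes with a close neighbour, the shared ones were 36 of 43 for DNA replication and repair, 26 of 30 for mitochondrial ribosomal proteins, 33 of 47 for the respiratory chain, 28 of 41 for histones, 28 of 42 for zinc fingers, 10 of 19 for helicases, 10 of 11 for RNA polymerases, and 14 of 21 for cytosolic ribosomal proteins. The tRNA synthetases and the proteasome list each had 10 of 13. Of the naive T cell list, 6.25% of genes had a close neighbour, and both of these (2 of 2) were in a shared region. A region at an end, shared or not, was found for 106 of the 114 DNA replication and repair genes, 73 of 78 mitochondrial ribosomal, 84 of 95 respiratory chain, 71 of 80 cytosolic ribosomal, 48 of 57 histone and 281 of 388 zinc finger genes, against 50.2% of all genes.

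**Figure D5:**
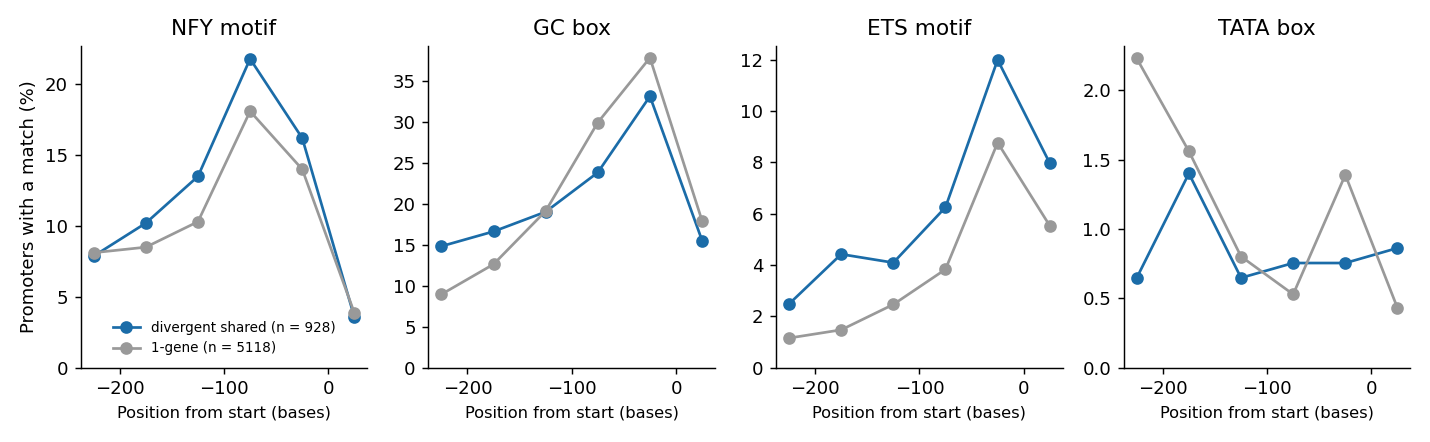
Percent of promoters with a match to the NF-Y, GC box, ETS and TATA motifs (vertical axes, each with its own scale from 0) in windows of 50 bases by position from the annotated start (horizontal axes, bases, points at window middles), for 928 promoters of divergent pairs (blue) and 5118 promoters at 1 gene (grey). In both sets ETS was highest in the window just before the start, at 12% and 8.77%, and the TATA panel spans only a few percent.

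Promoter sequence, which the rule did not use, was read for the 300 bases from 250 before to 50 after the annotated start. The 928 promoters of divergent pairs had a median GC content of 62.7% (interval 62 to 63.3%), against 61% (60.7 to 61.3%) for the 5118 promoters inside regions at 1 gene and 56.7% for all 16457 promoters. Their ratio of observed to expected CpG had a median of 0.871 (0.855 to 0.882), against 0.782 (0.775 to 0.789) and 0.597. Tandem pairs had a median ratio of 0.758 (0.729 to 0.787) over 185 promoters, below that of divergent pairs. Starts outside every region had a median ratio of 0.27. The 2 promoters of a divergent pair overlapped each other in 388 of 423 combinations (91.7%), so they are not separate observations. With 1 promoter taken from each pair the median ratio was 0.877. A divergent window often also spans the partner's start, since the closest starts lay a median of 158 bp apart. Taking 1 promoter a pair does not remove this, so the comparisons with promoters at 1 gene are not like for like.

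The 9 motifs were searched by their letters on both strands. The ETS core CCGGAAG was in 30.9% of divergent promoters (28 to 34%) and in 20.1% of promoters at 1 gene (19 to 21.2%). With 1 promoter taken from each pair the ETS share was 30.5% (26.1 to 35.1%). Each such window can still span the partner's start, which was not matched in the promoters at 1 gene. Promoters of tandem pairs held it in 29.2% of 185 (22.8 to 36.3%), an interval that overlapped that of divergent promoters. The motif of YY1 was in 3.99% (2.82 to 5.45%) of divergent promoters and in 1.74% (1.4 to 2.14%) of those at 1 gene. With 1 promoter a pair it was in 2.84% (1.47 to 4.9%), and the intervals then overlapped. In the 250 bases before the start alone, YY1 was in 2.26% (1.41 to 3.44%) of divergent promoters and 0.274% (0.15 to 0.459%) at 1 gene. With 1 promoter a pair it was in 1.89% (0.82 to 3.69%) of that window, and these intervals did not overlap that at 1 gene. That window, too, can hold the partner's start. The motif of NRF1 was in 4.09% and 2.56%, the GC box GGGCGG in 70.9% and 69.5%, CCAAT in 44.4% and 42%, and the cAMP response element TGACGTCA in 3.99% and 4.12%. The E-box CACGTG was in 11% and 11.3%, TATAAA in 4.85% and 6.76% and the motif of ZNF143 in 1.4% and 0.957%. The intervals overlapped in each of these 7 motifs. Over all 16457 promoters the shares were 12.3% for ETS, 47.3% for the GC box, 39.1% for CCAAT, 0.99% for YY1, 1.37% for NRF1, 2.4% for TGACGTCA, 7.97% for CACGTG, 0.468% for ZNF143 and 13.5% for TATAAA.

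Among promoters with a CpG ratio between 0.75 and 1, ETS was in 31.1% (26.9 to 35.5%) of 473 divergent promoters and in 22.7% (20.9 to 24.4%) of 2269 promoters at 1 gene. In the same promoters YY1 was in 3.81% and 1.9%, NRF1 in 4.86% and 3.13% and the GC box in 72.3% and 77.3%, with overlapping intervals. The GC box value was lower in divergent promoters here and higher over all of them, but the intervals overlapped both times, so no direction is read. By position, the ETS core was most frequent in the 50 bases before the start in both sets, at 12% and 8.77%. From 200 to 150 bases before the start, where the partner's promoter can lie, it was in 4.42% and 1.47%. CCAAT was most frequent between 100 and 50 bases before the start, at 21.8% and 18.1%. The GC box in the last 50 bases before the start was in 33.1% of divergent promoters and in 37.8% of the others.

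The stretch between the 2 starts could be read whole for 285 of the 423 divergent combinations (67.4%), those with 10 to 250 bases between the starts. Its median length was 108 bases and its median GC content 64.2% (62.9 to 65.7%). A GC box was in 50.2% of stretches, CCAAT in 36.5%, the ETS core in 15.8%, CACGTG in 5.96%, TGACGTCA in 3.86%, the NRF1 motif in 3.16% and TATAAA in 1.75%. Neither the YY1 nor the ZNF143 letters were in any of the 285, which allows a share of up to 1.29%. None of the 9 motifs was in 22.8%. Some combinations had the same stretch, such as Gm20604/Ubr7 and Gon7/Ubr7, or Bysl/Med20 and Bysl/Gm20517. The 285 are thus not all distinct, and the intervals count a repeated stretch as separate.

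The 7 stretches between an H2a and an H2b histone gene, of which H2ac12/H2bc12 and H2ac8/H2bc8 are printed above, were described apart. Each held 2 to 5 CCAAT boxes (median 4), and none held a GC box. Their GC content was 38.5 to 47.4%, with a median of 42.3%, and 2 of the 7 held TATAAA. The lowest GC content of all 285 stretches, 38.5%, was that of H2ac8/H2bc8. Their lengths were 163 to 248 bases, and their regions were 673 to 996 bp wide. This group was picked out after the stretches had been read and carries no test.

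Other features of the shared regions were read from the gene table. A long noncoding RNA had an end in the window of 4.84% of them (3.59 to 6.36%), against 11.6% (10.9 to 12.3%) of regions at 1 gene. Small nucleolar RNAs were at 0.202% and 0.283%, and microRNAs at 1.01% and 0.649%. Genes in shared regions had a median length of 14743 bp, against 23464.5 bp for the other genes with a region at an end. The nearest other region lay a median of 8409 bp away (7907 to 9068 bp), close to the 7943 bp (7704 to 8202 bp) of regions at 1 gene.

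Shared regions were found on all 19 autosomes. Per 100 protein-coding genes there were 4.77 ± 1.23 (mean ± SD, n = 19 chromosomes). Chromosome 18 was lowest with 2.15 and chromosome 17 highest with 7.65. The share of close pairs under 1 region varied less, 49.7 ± 5% (SD), with 41.5% on chromosome 6 as the lowest and 60% on chromosome 13 as the highest. The intervals of these extremes, 30.7 to 52.9% and 48 to 71.1%, overlapped.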

How the data were processed

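ATAC-seq regions of 4 libraries were used, 2 from WT and 2 from Ddx55 KO mice. The authors deposited 1 joint list of region positions, on build mm10 per the submitters' processing notes, which also name fastp 0.12.4, Bowtie2, SAMtools 1.15.1 and MACS3 3.0.0b1. Not given in the sources used here were the roles of the tools, the peak threshold, the shift for transposase cuts and how libraries were joined. Library and genotype values were not analysed here, so the planned groups had no test.

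Positions were made 1-based. Gene ends came from a RefSeq gene table and starts, strands and promoters from a RefSeq promoter table, both of GRCm38.p6, which is the assembly of mm10. Strand was matched for 79.6% of the 20665 genes and promoters for 81.7% of genes on chromosomes 1 to 17 and 19. Orientation shares of pairs describe only the pairs with both strands. No gene of chromosome 18 had a strand, so that chromosome is in no result by arrangement or annotated start. The GC, CpG and motif values used chromosomes 1 to 17 and 19.

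Intervals are 95% exact (Clopper-Pearson) for shares and from order statistics for medians. They treat neighbouring regions as independent. The members and gene lists were chosen with earlier results of these data known, so the shares are descriptions. Named regions were the widest, narrowest, those over most genes, with extreme gaps, the 3 widest per gene list, the known pairs and that next to Ddx55; the remaining examples were picked with their values already seen. A few regions that meet these criteria are not reported here. The member search and counts were tested on simulated data. Alternatives changed the window, overlap, width minimum, merging, gene set and motif window. Python 3.11.15, numpy 2.4.6, pandas 2.3.3, scipy 1.17.1 and matplotlib 3.10.9 were used.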

Additional observations from a re-analysis of the deposited data

Results flagged for a closer look

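Chromosome X lay outside the autosomal comparison and held 20 regions over the ends of separate genes, which drew attention as a signal in data that no comparison above used. Of its 44 close gene pairs, 20 had 1 region over both ends (45.5%, 95% exact interval 30.4 to 61.2%), an interval that includes the autosomal 48.7%. Chromosome Y had 0 close pairs. The regions on X were at pairs such as Pqbp1/Timm17b (1276 bp), Idh3g/Ssr4 (1020 bp) and the tandem pair Timm8a1/Btk (739 bp), where Btk encodes a B cell kinase. A region of 873 bp covered an end of Brcc3 and of the overlapping genes Cmc4 and Mtcp1.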

How the results depend on the processing

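Over 29 results and the settings tried, 164 of 207 values stayed within the spread allowed and 43 did not. A count could differ by up to 1.5-fold, and a share or median had to stay inside its main interval. Within that limit the 992 regions became 846 with windows of 250 bp, 1258 with windows of 1000 bp and 765 by midpoint. Their 1915 genes became 1673, 2344 and 1508. None of the 43 came from an overlap of 50 bp, regions of at least 300 bp, leaving out predicted genes, adding X and Y, merging regions within 100 bp, or the promoter alternatives added after seeing the data. With windows of 250 bp the median width was 930.5 bp, 42.4% of close pairs shared a region (31% of tandem and 1.18% of convergent pairs), 77.9% of oriented pairs were divergent, 88% of starts faced the partner and 1 T cell gene was left. With windows of 1000 bp these were 840.5 bp, 54.5%, 56.9%, 8.06%, 60.2% and 77.1%. With only the midpoint of a region counted, 38.3% of close pairs shared a region (86.2% of divergent, 23.7% of tandem and 0.948% of convergent pairs), 81.5% were divergent, 90% of starts faced the partner, and the T cell and proteasome lists held 1 and 6 genes. Annotated start sites were also used in place of gene ends, which drops genes without strand. There were then 469 regions of median width 982 bp over 939 genes. Of the oriented pairs 99.4% were divergent, and 99.7% of starts faced the partner. Both shares follow largely from the setting, since the starts of tandem or convergent neighbours mostly lie at least a gene apart. Of all 2014 close pairs, 23.3% then shared a region (82.7% of divergent, 0.67% of tandem and 0% of convergent pairs). That count keeps the 579 pairs of unknown strand, none of which could share a region in this setting. The low tandem and convergent shares follow from the setting in the same way. The lists then held 0 T cell, 15 mitochondrial ribosomal, 20 respiratory chain, 6 cytosolic ribosomal, 19 DNA replication and repair, 5 tRNA synthetase, 5 proteasome, 12 zinc finger and 17 histone genes. In the 250 bases before the start alone, the GC box was in 65.5% of divergent promoters, ETS in 24%, YY1 in 2.26% and the E-box in 8.73%. No paired analysis was possible because the list carries no value per library, and leaving out a replicate could not be run for the same reason. Depth is unknown, so a gene end without a region was not detected as open here and cannot be called closed.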
